A study of Arabidopsis thaliana with 8 samples.

Results

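Genes that kept 24-nt small RNAs (sRNAs) in Arabidopsis endosperm without RNA polymerase IV (Pol IV) were taken from tables of 24-nt read counts per gene. A member gene had 60 or more 24-nt reads summed over the 3 nrpd1-/- libraries and a mean level in nrpd1-/- endosperm at or above its mean in mat nrpd1+/- endosperm. Each library was scaled by the 24-nt reads assigned to microRNA (miRNA) entries, so a level below is a number of reads per 10000 such miRNA reads of the same library, called scaled reads. The rule found 348 genes of 33433 in the tables. Of the 542 genes with enough reads, the other 194 had a lower mean in nrpd1-/- than in mat nrpd1+/-. The genes were thus chosen by the 24-nt values of the nrpd1-/- and mat nrpd1+/- libraries, so every nrpd1-/- to mat nrpd1+/- difference below is a description and carries no test.

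The study asked what the Pol IV of each parent does in the endosperm, the nutritive tissue of the seed, in which maternal genomes outnumber the paternal genome. NRPD1 encodes the largest Pol IV subunit, and the mutant allele was nrpd1a-4 in all crosses, a T-DNA insertion from Col-0 that had been backcrossed into Ler. In nrpd1-/- endosperm (3 libraries) a Ler nrpd1-/- mother was crossed to a Col-0 nrpd1-/- father. In mat nrpd1+/- endosperm (3 libraries) the mother was Ler nrpd1-/- and the father wild-type Col-0. In pat nrpd1+/- endosperm (2 libraries, numbered 2 and 3) the mother was wild-type Ler and the father Col-0 nrpd1-/-. All 8 libraries were from endosperm dissected 7 days after pollination, and each pooled many seeds from separate crosses. The mutant Ler mothers of nrpd1-/- and mat nrpd1+/- endosperm keep Col-0 sequence around NRPD1. In comparisons with pat nrpd1+/- this segment and the genotype cannot be told apart. The wild-type cross is not analysed here.

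In plants most 24-nt sRNAs depend on Pol IV together with the RNA-dependent RNA polymerase RDR2 and the Dicer DCL3, and they direct DNA methylation to matching loci. Other double-stranded RNAs reach the Dicer enzymes without it: transcripts that fold back on themselves through an inverted repeat, overlapping opposite transcripts, and transcripts copied by RDR6 after a miRNA cut, as at the TAS genes, the sources of trans-acting siRNAs, and at pentatricopeptide repeat (PPR) genes. Fragments of abundant structural RNAs such as rRNA, tRNA and snoRNA also enter sRNA libraries, at many lengths.

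The family of members with most 24-nt reads in sum was the pseudogenes of AGAMOUS-like 28, a MADS-box transcription factor gene, and stretches of these are shown because the same blocks lie in opposite orientation nearby. The neighbours AT3G32313 (chr3:13265506-13265725, minus strand) and AT3G32316 (chr3:13266445-13266664, plus strand) point away from each other, and AT2G25025 (chr2:10644811-10644989, plus strand) was the single member with most reads. Capitals mark bases inside a stretch of 15 bases whose reverse complement lies 20 or more bases away in the gene or within 2 kb of it. Sequences and positions are from RefSeq, build TAIR10.1, and are read 5′ to 3′ on the strand of each gene.
AT3G32313: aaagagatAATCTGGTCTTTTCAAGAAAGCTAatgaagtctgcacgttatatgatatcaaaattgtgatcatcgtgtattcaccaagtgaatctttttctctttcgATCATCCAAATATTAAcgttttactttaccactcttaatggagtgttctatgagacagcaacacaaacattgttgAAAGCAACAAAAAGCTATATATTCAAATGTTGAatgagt
AT3G32316: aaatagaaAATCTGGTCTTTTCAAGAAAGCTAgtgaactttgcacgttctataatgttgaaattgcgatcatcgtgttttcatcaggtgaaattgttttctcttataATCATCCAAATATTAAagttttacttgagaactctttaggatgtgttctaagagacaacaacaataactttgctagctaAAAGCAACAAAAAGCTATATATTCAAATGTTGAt
AT2G25025: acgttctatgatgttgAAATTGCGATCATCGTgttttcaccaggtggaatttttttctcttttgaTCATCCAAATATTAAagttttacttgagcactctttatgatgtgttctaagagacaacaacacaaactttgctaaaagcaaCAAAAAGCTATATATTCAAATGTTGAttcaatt

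The arms of the clearest hairpin lie inside the protein-coding gene AT4G19580 (chr4:10668722-10668802 and chr4:10669105-10669185, both read on the plus strand). The right arm is the reverse complement of the left arm over all 81 bases, and every base is in capitals by the same rule.
AT4G19580 left arm: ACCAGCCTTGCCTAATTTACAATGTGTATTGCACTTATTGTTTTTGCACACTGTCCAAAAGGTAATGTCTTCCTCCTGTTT
AT4G19580 right arm: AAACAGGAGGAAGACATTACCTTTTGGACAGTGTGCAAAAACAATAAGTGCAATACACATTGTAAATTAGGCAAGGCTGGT

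The largest class of members after protein-coding genes was tRNA genes. The tRNA-His gene AT1G02600 (chr1:552640-552711, plus strand) had most 24-nt reads among them, and AT2G33660 (chr2:14244699-14244770, plus strand) stands for tRNA-Asp, the amino acid with most member genes. In these sequences the capitals mark the anticodon.
AT1G02600: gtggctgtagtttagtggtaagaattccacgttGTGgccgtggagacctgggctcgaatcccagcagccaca
AT2G33660: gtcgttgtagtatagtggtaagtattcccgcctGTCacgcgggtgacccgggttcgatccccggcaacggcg

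Genic 24-nt reads were fewest in the nrpd1-/- libraries, which the miRNA reads that set the scale were not. The genes held 261425 to 452959 24-nt reads in the nrpd1-/- libraries, 863680 to 1082355 in the mat nrpd1+/- libraries, and 1104445 and 3236278 in the pat nrpd1+/- libraries. The miRNA entries held 19645 to 31761, 16855 to 17785, and 13118 and 38607 24-nt reads in the same order of genotypes. All genes together had 136338 ± 5438 scaled reads in nrpd1-/- and 562208 ± 51745 in mat nrpd1+/- (SD, n = 3 each). In pat nrpd1+/- they had 838262 and 841931, so genic 24-nt sRNAs were at their lowest in the libraries labelled nrpd1-/-. Genes that are not members had 25501 ± 2167, 491544 ± 59231, and 461237 and 551536 in the same order of genotypes. The rule itself favours a low nrpd1-/- sum in these genes, so nothing is read from that sum. In pooled tissue, fewer cells that make a given sRNA and less of it per cell cannot be told apart. The sRNA tables hold no measure of the NRPD1 transcript. Lists of endosperm, seed coat and embryo marker genes had no gene with 60 or more 24-nt reads in nrpd1-/-, so 24-nt counts give no check of tissue there.

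The members carried most of the genic 24-nt sRNAs that remained. They held 82.1%, 79.2% and 82.5% of genic 24-nt reads in nrpd1-/- replicates 1 to 3, against 10.7%, 11.6% and 15.9% in mat nrpd1+/- replicates 1 to 3. In pat nrpd1+/- they held 45.0% and 34.5% in replicates 2 and 3. In scaled reads the members summed to 117118, 105653 and 109737 in nrpd1-/- and to 66140, 64610 and 81242 in mat nrpd1+/-. The groups did not overlap in this sum, which the rule itself favours.

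By annotation the 348 members were 111 protein-coding genes, 107 tRNA, 45 snoRNA and 12 snRNA genes, 37 genes with chloroplast or mitochondrial identifiers, 14 long non-coding RNA (lncRNA) genes, 13 transcribed pseudogenes, 5 other non-coding RNA genes, 3 rRNA genes and 1 antisense RNA gene. Structural RNA classes were frequent among them: members made up 17.1% of 625 tRNA genes, 15.7% of 287 snoRNA genes, 14.6% of 82 snRNA genes and 3 of 4 rRNA genes. They also made up 13.0% of 285 genes with organellar identifiers, whose kind of transcript the annotation used here does not give. By contrast members were 0.404% of 27442 protein-coding genes and 1.4% of 926 transcribed pseudogenes. Reads were distributed differently from genes. The 13 pseudogenes held 39.2%, 48.5% and 51.4% of all member 24-nt reads in nrpd1-/- replicates 1 to 3, and the 3 rRNA genes held 26.2%, 18.8% and 20.5%. The 111 protein-coding genes held 13.9%, 14.5% and 10.5%, whereas the 107 tRNA genes held 3.32%, 2.85% and 2.50%, and the 45 snoRNA genes under 1% in each library.

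**Figure D1:**
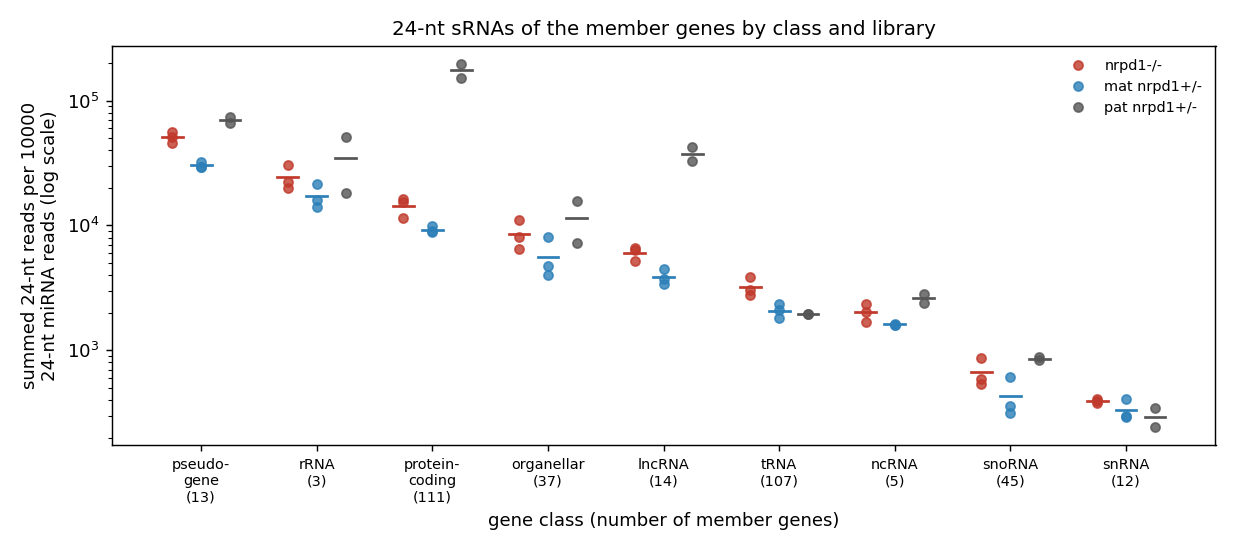
Summed 24-nt reads of the member genes per 10000 24-nt miRNA reads (log scale) by gene class; each point is a library and each bar the mean of nrpd1-/- (3), mat nrpd1+/- (3) or pat nrpd1+/- (2). Pseudogenes are the highest class in nrpd1-/-, at 45856 to 56450, and protein-coding members are highest in pat nrpd1+/-, at 152901 and 196090.

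Most of the pseudogene reads came from the 6 AGAMOUS-like 28 pseudogenes, which held 30.6%, 38.7% and 42.4% of all member 24-nt reads in the nrpd1-/- libraries. AT2G25025 (chr2:10644561-10644989) had 16819, 18287 and 20068 scaled reads in nrpd1-/-, 9564, 9761 and 10661 in mat nrpd1+/-, and 14463 and 16916 in pat nrpd1+/-. Every nrpd1-/- library was above every mat nrpd1+/- library, and the nrpd1-/- and pat nrpd1+/- ranges overlapped. AT3G32371 had 5805, 6934 and 8996 scaled reads in nrpd1-/-, 4926, 4576 and 5258 in mat nrpd1+/-, and 6117 and 8374 in pat nrpd1+/-. AT3G31903 and AT3G32316 had similar levels, with nrpd1-/- means of 5578 ± 1109 and 5542 ± 1179 against mat nrpd1+/- means of 4238 ± 388 and 4078 ± 362 (SD, n = 3 each). In these 3 genes replicate 3 was the highest nrpd1-/- library, and the ranges of nrpd1-/- and mat nrpd1+/- overlapped only for AT3G31903. AT3G31902, on the opposite strand beside AT3G31903, averaged 2333 ± 265 scaled reads in nrpd1-/- and 1795 ± 36.3 in mat nrpd1+/-. AT3G32313, the partner of AT3G32316, had 1762, 2315 and 1827 scaled reads in nrpd1-/-, 604, 730 and 628 in mat nrpd1+/-, and 844 and 1021 in pat nrpd1+/-, the largest nrpd1-/- to mat nrpd1+/- ratio of the family, 3.01. The 6 pseudogenes share sequence, and 37.7% to 66.7% of the 24-base words of each occur elsewhere in the genome, so how reads were split among them is uncertain. Their reads were nearly all 24 nt long: the 24-nt class made up 90.0% to 93.8% of the 22- to 24-nt reads of each in nrpd1-/-.

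AT2G25015 (chr2:10634415-10636130), a pseudogene of a DNA repair protein-like gene near AT2G25025, had 8936, 9801 and 9440 scaled 24-nt reads in nrpd1-/-, against 4037, 4132 and 4632 in mat nrpd1+/- and 5939 and 6368 in pat nrpd1+/-. AT2G24340 (chr2:10355430-10359546), annotated as a sequence-specific DNA-binding transcription factor and the protein-coding member with most 24-nt reads, had 7339, 7462 and 5644 in nrpd1-/-, 4464, 4744 and 5542 in mat nrpd1+/-, and 9171 and 5845 in pat nrpd1+/-. The lncRNA gene AT2G08050 (chr2:10409380-10409695) had 3285, 3109 and 2837 in nrpd1-/-, 1383, 1642 and 2405 in mat nrpd1+/-, and 3276 and 2021 in pat nrpd1+/-. In all 3 genes the nrpd1-/- libraries lay above the mat nrpd1+/- libraries, and 24-nt reads were 88.8% to 93.2% of the 22- to 24-nt reads.

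Inverted repeats like these were looked for at every gene. Of 311 members with a sequence, 27 (8.68%) had 10% or more of their bases in such stretches with the gene and 2 kb on either side searched, against 131 of 33148 genes (0.395%). The share among the 171 non-members with 60 or more reads and a sequence was 7.6% (13 genes), so genes on both sides of the ratio limit had them. The 27 members held 34.1%, 43.3% and 46.0% of member 24-nt reads in nrpd1-/- replicates 1 to 3, mostly through the pseudogenes above. Their median 24-nt share of 22- to 24-nt reads was 74.6%, with a range of 44.9% to 95.4%, against a median of 42.0% over all members. Beyond the pseudogenes they included neighbours in opposite orientation, of which AT3G44570, annotated as a retrotransposon ORF-1 protein, and AT3G44580 are described here after their values were seen. AT3G44570 had 387, 489 and 475 scaled 24-nt reads in nrpd1-/-, 100, 107 and 86.6 in mat nrpd1+/-, and 288 and 329 in pat nrpd1+/-. AT3G44580 had 314, 438 and 508 in nrpd1-/-, 192, 150 and 151 in mat nrpd1+/-, and 296 and 412 in pat nrpd1+/-. Both were lowest in the 3 mat nrpd1+/- libraries, with no overlap with either other genotype. AT4G19580, the gene with the hairpin arms shown above, annotated as a DNAJ heat shock domain protein, had 27.7, 21.4 and 19.3 scaled reads in nrpd1-/-, 12.5, 14.1 and 16.0 in mat nrpd1+/-, and 18.9 and 18.3 in pat nrpd1+/-. Other members with an inverted repeat were the sulfotransferase genes SOT16 and SOT18, of glucosinolate synthesis, with 24-nt shares of 86.5% and 81.2%. These genes and the next 3 were likewise picked after their values were seen. The lncRNA neighbours AT3G01835 and AT3G01845 are inverted copies of each other over nearly their whole length, with 98.4% and 98.8% of their bases in such stretches. AT3G01835 had 242, 417 and 205 scaled reads in nrpd1-/-, against 160, 170 and 197 in mat nrpd1+/- and 105 and 134 in pat nrpd1+/-. In AT3G01835 22-nt reads outnumbered 24-nt reads, with a 22-nt share of 49.9% and a 24-nt share of 44.9%, whereas the pseudogenes above were mainly 24-nt. AT2G20818, a pseudogene of METHYL-CPG-BINDING DOMAIN 3, had 361, 255 and 250 scaled reads in nrpd1-/-, against 91.6, 106 and 73.6 in mat nrpd1+/- and 49.2 and 87.7 in pat nrpd1+/-, with a 24-nt share of 91.2%. In AT3G01835 and AT2G20818 every nrpd1-/- library lay above every library of both other genotypes.

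Structural RNAs formed the largest group by number. The 167 rRNA, tRNA, snRNA and snoRNA members held 30.6%, 22.6% and 23.8% of member 24-nt reads in nrpd1-/- replicates 1 to 3, against 27.7%, 26.2% and 30.3% in mat nrpd1+/-. The 18S rRNA gene AT3G41768 had 15001, 9727 and 10565 scaled reads in nrpd1-/-, 7701, 6778 and 10385 in mat nrpd1+/-, and 24631 and 8695 in pat nrpd1+/-. The second 18S gene, AT2G01010, had 13219, 8589 and 9748 in nrpd1-/-, 7029, 6237 and 9330 in mat nrpd1+/-, and 22517 and 7866 in pat nrpd1+/-, and the ribosomal RNA gene AT2G01020 averaged 2046 ± 505 in nrpd1-/- and 1306 ± 416 in mat nrpd1+/- (SD, n = 3 each). In each rRNA gene the nrpd1-/- and mat nrpd1+/- ranges overlapped and pat nrpd1+/- replicate 2 was above every other library. The 18S genes share 97.3% of their 24-base words and are uncertain as separate genes. Read lengths were nearly even in rRNA: 24-nt reads were 33.1% of the pooled 22- to 24-nt reads in nrpd1-/-, against 35.3% in mat nrpd1+/- and 34.9% in pat nrpd1+/-.

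Among the organellar members ATCG00950, the highest, had 3623, 2120 and 2812 scaled reads in nrpd1-/-, 1592, 1328 and 2929 in mat nrpd1+/-, and 5169 and 2141 in pat nrpd1+/-. Only 3 of the 37 organellar members had all nrpd1-/- libraries above all mat nrpd1+/- libraries, and their median nrpd1-/- to mat nrpd1+/- ratio was 1.24. Their names are not given by the annotation used here.

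The 107 tRNA members summed to 3888, 3016 and 2747 scaled reads in nrpd1-/-, against 1808, 2338 and 2101 in mat nrpd1+/- and 1938 and 1971 in pat nrpd1+/-. The nrpd1-/- libraries were above both other genotypes in this sum, an order that the choice of members by high reads in nrpd1-/- favours. AT1G02600, the tRNA-His gene shown above, had 317, 184 and 83.0 scaled reads in nrpd1-/-, 67.1, 113 and 90.2 in mat nrpd1+/-, and 126 and 71.7 in pat nrpd1+/-. Replicate 1 was far above replicate 3 in nrpd1-/-, and the ranges overlapped. The 10 tRNA-His members held 1.70% of member reads in nrpd1-/- replicate 1 and 0.622% in replicate 3. The 22 tRNA-Asp members were low and even, and AT2G33660 had 18.3, 16.7 and 13.7 scaled reads in nrpd1-/-, against 7.40, 5.06 and 10.7 in mat nrpd1+/- and 13.0 and 8.39 in pat nrpd1+/-. In the tRNA class 24-nt reads were 48.2% of pooled 22- to 24-nt reads in nrpd1-/-, against 42.0% in mat nrpd1+/- and 44.2% in pat nrpd1+/-. The median tRNA member had 100% of its 24-base words elsewhere in the genome, so counts of single tRNA genes are uncertain.

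The snRNA and snoRNA members were low. U2.4 (AT3G56825), a spliceosomal U2 snRNA gene, had 52.0, 39.2 and 62.6 scaled reads in nrpd1-/-, 39.3, 34.3 and 64.7 in mat nrpd1+/-, and 25.9 and 73.9 in pat nrpd1+/-, with overlap among all groups. The snoRNA gene AT2G35744 had 66.1, 54.1 and 31.1 in nrpd1-/-, 19.3, 34.9 and 33.2 in mat nrpd1+/-, and 43.3 and 41.9 in pat nrpd1+/-. Across the 45 snoRNA members the sums were 868, 592 and 536 in nrpd1-/-, 361, 317 and 613 in mat nrpd1+/-, and 877 and 841 in pat nrpd1+/-. The sums of nrpd1-/- and mat nrpd1+/- overlapped, while pat nrpd1+/- was close to the highest nrpd1-/- library.

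**Figure D2:**
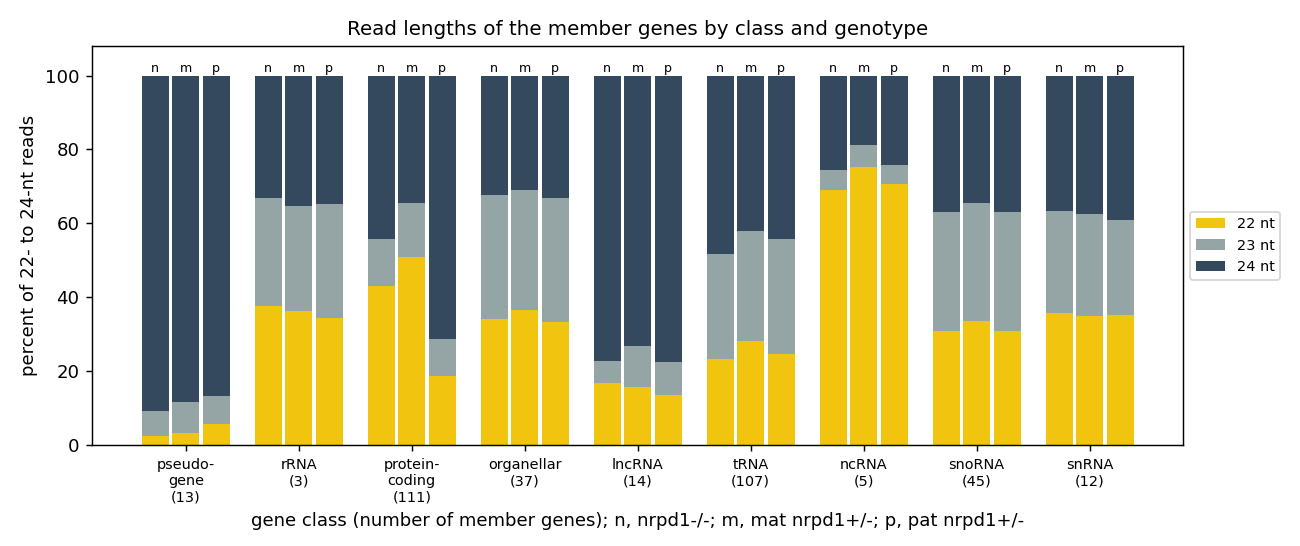
Percent of 22-, 23- and 24-nt reads among the 22- to 24-nt reads of the member genes, pooled over genes and libraries, by gene class; n, nrpd1-/-; m, mat nrpd1+/-; p, pat nrpd1+/-. Pseudogenes (90.7% 24-nt in nrpd1-/-) and lncRNAs (77.2%) are mainly 24-nt, rRNA is even (33.1%), and the other non-coding RNAs are mainly 22-nt (69.1%).

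Members differed in read length. The 24-nt reads of nrpd1-/- that the rule used enter these shares, so they are given as a description. In nrpd1-/- 131 of 348 members had 50% or more of their 22- to 24-nt reads in the 24-nt class, 30 had 80% or more, and 18 had under 20%. In 26 members the 22-nt class held 50% or more. The median 24-nt share was 90.2% in pseudogenes, 77.4% in lncRNAs, 52.8% in protein-coding genes, 45.5% in tRNAs, 38.6% in snoRNAs, 33.4% in rRNAs, 32.8% in snRNAs and 31.7% in organellar genes. These medians include 44 members set apart below by their high level in pat nrpd1+/-, 34 of them protein-coding and 7 lncRNA genes. The median share was 77.5% in those 44 and 38.5% in the other 304 members. A table of 21-nt reads in nrpd1-/- could be used for 127 members, and 57 of these had more 21-nt than 24-nt reads.

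Members rich in 21- and 22-nt sRNAs included genes known for siRNAs made after cleavage by miRNAs. TAS2, whose transcript is cut by miR173, had 1575, 1881 and 2210 scaled 24-nt reads in nrpd1-/-, 1491, 1498 and 1534 in mat nrpd1+/-, and 2238 and 2708 in pat nrpd1+/-, with 25.3% of its 22- to 24-nt reads in the 24-nt class in nrpd1-/- and 70.6% in the 22-nt class. The nrpd1-/- libraries lay above mat nrpd1+/- and below pat nrpd1+/-. Of a list of 8 TAS genes, 4 had 60 or more reads in nrpd1-/- and TAS2 was the only member; TAS1A, TAS1B and TAS1C had nrpd1-/- to mat nrpd1+/- ratios of 0.753, 0.0756 and 0.927.

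PPR genes of the RNA PROCESSING FACTOR (RPF) clade, which act on mitochondrial transcripts, gave 6 members of 12 listed: AT1G62910, RPF3, AT1G63080, AT1G63130, AT1G63150 and AT1G63400. Of the 12, 10 had 60 or more reads in nrpd1-/-. Those that were not members, RPF2, AT1G63070, AT1G62590 and AT1G63330, had nrpd1-/- to mat nrpd1+/- ratios of 0.983, 0.983, 0.968 and 0.936, close to the limit. AT1G63080, the highest, had 113, 113 and 147 scaled 24-nt reads in nrpd1-/-, 80.2, 66.9 and 64.1 in mat nrpd1+/-, and 156 and 165 in pat nrpd1+/-. RPF3 had 63.9, 74.1 and 56.5 in nrpd1-/-, 41.0, 45.5 and 43.3 in mat nrpd1+/-, and 48.2 and 59.5 in pat nrpd1+/-. In the other 4 members the nrpd1-/- means were 41.6 to 72.9 and the mat nrpd1+/- means 31.7 to 44.9. All 6 were low in 24-nt share, 21.2% to 26.4%, and high in 22-nt share, 67.3% to 73.0%. Of the 6, all but AT1G63400 lie within 100 kb of NRPD1 (chr1:23354685-23362589), and AT1G63400 lies 145 kb away. The extent of the Col-0 segment that the mutant Ler mothers keep around NRPD1 was not measured here. Both nrpd1-/- and mat nrpd1+/- endosperm have such mothers. Against pat nrpd1+/- the part of this segment in these levels cannot be told apart from genotype.

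The shortest profile was that of AT4G14810, an uncharacterised gene chosen here after its values were seen: 23251 21-nt and 198 24-nt reads summed over the nrpd1-/- libraries. DMT2 (AT4G14140), annotated as a DNA methyltransferase and also chosen after its values were seen, had 234174 21-nt reads and 8261 24-nt reads, at 1009, 1068 and 1047 scaled 24-nt reads in nrpd1-/-, 1134, 968 and 912 in mat nrpd1+/-, and 904 and 1098 in pat nrpd1+/-. These ranges overlapped. AT1G12290, a disease resistance gene of the CC-NBS-LRR class picked in the same way, had 15641 21-nt and 505 24-nt reads in nrpd1-/-, with 65.5, 71.6 and 48.9 scaled 24-nt reads in nrpd1-/-, against 22.2, 28.1 and 33.2 in mat nrpd1+/- and 32.4 and 25.9 in pat nrpd1+/-. Its nrpd1-/- libraries lay above all others. AGO1, which encodes the main effector of miRNAs and was the only member among 11 listed genes of post-transcriptional silencing, had 26, 29 and 19 24-nt reads in nrpd1-/- and 3418 21-nt reads over the 3 libraries. SESA2, which encodes a seed storage albumin, was the only member among 13 listed storage protein and oleosin genes, at 7.56, 13.2 and 11.7 scaled 24-nt reads in nrpd1-/-, 10.2, 13.5 and 6.53 in mat nrpd1+/-, and 3.63 and 6.86 in pat nrpd1+/-. None of 15 listed genes of the Pol IV pathway and none of 4 auxin receptor genes targeted by miR393 had 60 reads in nrpd1-/-.

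The level in pat nrpd1+/-, which the rule did not use, divided the members into separate sets. In 304 members the pat nrpd1+/- mean was at most 2.56 times the nrpd1-/- mean, and 252 of these had means within 2-fold of each other. In 49 the nrpd1-/- mean was over 2-fold above the pat nrpd1+/- mean and in 3 it was over 2-fold below it. In the other 44 members the pat nrpd1+/- mean was 70.9 to 138 times the nrpd1-/- mean, with no member between the sets. These 44, called pat-rich here, were 34 protein-coding genes, 7 lncRNA genes and 3 pseudogenes.

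**Figure D3:**
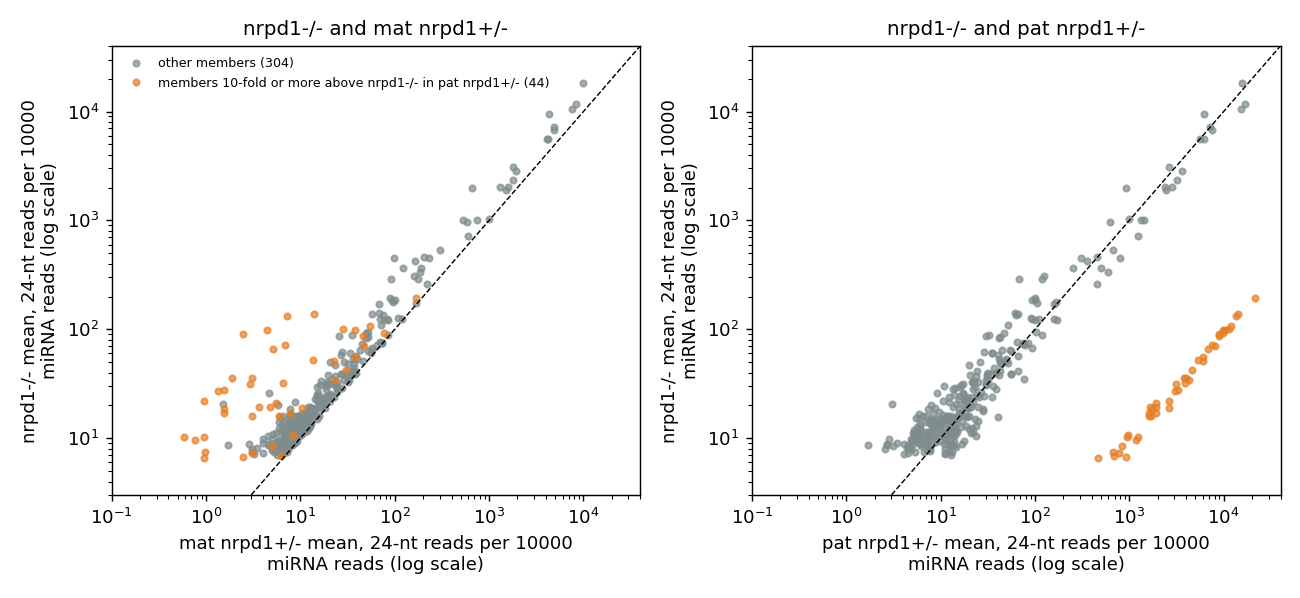
Mean 24-nt level of each of the 348 members in nrpd1-/- (vertical axis) against mat nrpd1+/- (left) and pat nrpd1+/- (right), in reads per 10000 24-nt miRNA reads on log axes; the dashed line marks equal levels. Of the 304 other members 40 lie 2-fold or more above the line in the left-hand plot, and 49 lie over 2-fold above and 3 over 2-fold below it in the right-hand plot. The 44 pat-rich members (orange) lie 70.9- to 138-fold to the right of it in the right-hand plot.

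For the 44 pat-rich members the description as genes that keep 24-nt sRNAs without Pol IV does not match the libraries. Their level as a percent of the pat nrpd1+/- mean had a median of 1.90% in nrpd1-/- replicate 1, 0.816% in replicate 2 and 0.0903% in replicate 3. The same medians were 0.208%, 0.215% and 0.233% in mat nrpd1+/- replicates 1 to 3. All 44 were highest in nrpd1-/- replicate 1, and the highest nrpd1-/- library was a median 21.0-fold above the lowest, against 1.67-fold in the other 304 members. Together they had 13227, 5007 and 369 24-nt reads in nrpd1-/- replicates 1 to 3 and 940447 and 253694 in pat nrpd1+/- replicates 2 and 3. They held 3.56%, 1.69% and 0.171% of member reads in the nrpd1-/- libraries and 64.6% and 66.6% in the pat nrpd1+/- libraries. Their share relative to pat nrpd1+/- was narrow within a library, from 1.16% to 3.55% in nrpd1-/- replicate 1 and from 0.519% to 1.51% in replicate 2.

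Of the 194 non-members with 60 or more reads, 51 were also 10-fold or more above nrpd1-/- in pat nrpd1+/-, with medians of 1.89%, 0.963% and 0.256% of the pat nrpd1+/- mean in nrpd1-/- replicates 1 to 3 and of 11.4%, 9.60% and 8.26% in mat nrpd1+/-. What sets the level of pat-rich genes in the nrpd1-/- libraries was not tested. With the ratio taken without nrpd1-/- replicate 1 and the read minimum kept, 33 of the 44 stayed members and the list had 333 genes, 313 of them shared. With the read minimum also counted without that library, 20 of the 44 stayed and the list had 228 genes.

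**Figure D4:**
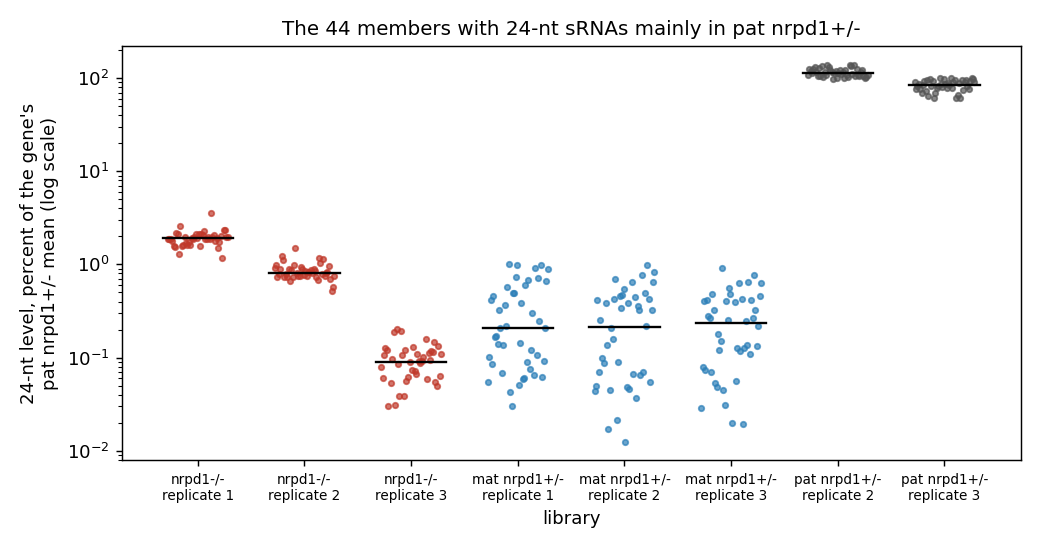
The 24-nt level of each of the 44 pat-rich members in each library, as a percent of the gene's pat nrpd1+/- mean (log scale; bars are medians, and points at 0 reads are not drawn, 3 of them in nrpd1-/- replicate 3). The nrpd1-/- medians are 1.90%, 0.816% and 0.0903% in replicates 1 to 3, and the mat nrpd1+/- medians are 0.208% to 0.233%.

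The 6 members with the largest nrpd1-/- to mat nrpd1+/- ratio were all pat-rich, with ratios of 18.4 to 36.5. The lncRNA gene AT3G05025 had 188, 76.9 and 6.62 scaled reads in nrpd1-/-, 4.55, 1.12 and 1.78 in mat nrpd1+/-, and 10155 and 7750 in pat nrpd1+/-. AGL91, a MADS-box gene, had 56.7, 22.1 and 3.05 in nrpd1-/-, 2.28, 1.12 and 0.593 in mat nrpd1+/-, and 4183 and 1873 in pat nrpd1+/-. In both genes the nrpd1-/- libraries were above mat nrpd1+/-, but by reads that were few in replicate 3 (13 and 6). AT1G13760, AT2G16575, AT2G16580 of the SAUR-like auxin-responsive family, and AT3G15960, annotated as a mismatched DNA-binding protein, had ratios of 22.4, 22.8, 18.6 and 18.4, and AT2G16575 lies within AT2G16580 on the opposite strand, so their reads may be shared.

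Among the other 304 members the largest ratio was that of AT5G49410 (chr5:20032287-20034020), annotated as a thiamine-phosphate synthase. It had 68, 64 and 36 24-nt reads in nrpd1-/-, 3, 3 and 2 in mat nrpd1+/-, and 12 and 4 in pat nrpd1+/-, or 20.8 ± 2.29 scaled reads in nrpd1-/- and 1.53 ± 0.295 in mat nrpd1+/- (SD, n = 3 each). It was also rich in shorter reads, with 389, 868 and 653 21-nt reads in nrpd1-/-, 21, 27 and 30 in mat nrpd1+/-, and 40 and 14 in pat nrpd1+/-. The reads of nrpd1-/- did not overlap those of either other genotype in these size classes. The next ratio was 5.67 at AT1G71840, a WD-40 repeat gene, named after its values were seen, with 26.2 ± 5.56 scaled 24-nt reads in nrpd1-/- and 4.63 ± 1.86 in mat nrpd1+/-.

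The median nrpd1-/- to mat nrpd1+/- ratio was 1.48 over all members and 1.43 over the 304, of which 40 had a ratio of 2 or more and 173 a ratio under 1.5. In 97 of 348 members every nrpd1-/- library was above every mat nrpd1+/- library, 90 of them among the 304. The same was true of 97 of the 542 genes with enough reads (17.9%), since the rule leaves out the rest, and nothing is read from this count. The highest and lowest nrpd1-/- libraries were within 2-fold of each other in 213 of the 304 members, and the highest was replicate 1 in 151, replicate 2 in 78 and replicate 3 in 75. Just inside the read minimum lay the tRNA genes AT1G49020 and AT3G59926 and the snoRNA gene AT4G04465 (60 reads each), and just outside it EIN2, of ethylene signalling, and the tRNA genes AT2G39600 and AT2G02600 (59 each). Just inside the ratio limit lay LUP2 (1.001), a triterpene synthase gene, ATCG00730 (1.002) and ATCG00720 (1.006), and just outside it UMAMIT25 (0.997), AT2G23834 (0.989) and CRU3 (0.988), a cruciferin storage protein gene.

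Members also shared sequence with each other. Of 311 with a sequence, 136 had 10% or more of their 24-base words in another member, in 28 groups, of which the largest were 21 tRNA genes, 10 tRNA genes, 10 genes with or overlapping U2 snRNA, and 7 PPR genes. Overall 41.2% of members had 50% or more of their 24-base words elsewhere in the genome, against 35.1% of non-members with 60 or more reads and 4.94% of all genes. Outside the tRNA genes the share of members was 11.8%.

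The 22- and 23-nt reads of nrpd1-/- and pat nrpd1+/- and the 21-nt reads of mat nrpd1+/- and pat nrpd1+/- were tested with edgeR's quasi-likelihood test over all genes, with Benjamini-Hochberg adjustment. Genes were called at an adjusted p up to 0.05 and a fold change of 2 or larger. In the 22-nt class 338 members passed the filter on low counts. Of these, 2 were higher in nrpd1-/- than in pat nrpd1+/- (0.766% of the 2219 genes tested were) and 45 were lower (51.1% of genes tested), 47 in all (51.9%). The lower members were the 44 pat-rich genes and the snoRNA gene AT1G08327, which had 25, 18 and 4 22-nt reads in nrpd1-/- and 41 and 43 in pat nrpd1+/- (adjusted p = 0.00920), a call lost under 6 of 11 alternatives, with adjusted p up to 0.229. The pat-rich genes were set apart by the 24-nt reads of the same nrpd1-/- and pat nrpd1+/- libraries and passed the filter through pat nrpd1+/-, so their calls restate that difference. They summed to 1942, 925 and 116 22-nt reads in nrpd1-/- and 151515 and 61508 in pat nrpd1+/-. The median log2 change was 0.12 over the 294 other members tested, 265 of which had estimates within 2-fold, against -2.05 over all genes tested. The members needed 24-nt reads in the same nrpd1-/- libraries, and the pat-rich genes were set aside. Both choices raise the median of the other members, so nothing is read from this contrast. The median SE of these 294 changes was 0.65, so differences near 2-fold were mostly not detectable. In simulated data over all genes tested most log2 changes of 2 were missed too. A member that was not called is thus not shown to be equal. The number called higher depended on the library scale: with TMM factors 59 members were higher and 44 lower, and with DESeq2 size factors 55 were higher and 44 lower, while the median of all genes moved to -0.92 and -1.04.

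The higher members were AT5G49410 and AT4G26255. AT5G49410 had 181, 315 and 182 22-nt reads in nrpd1-/- and 8 and 5 in pat nrpd1+/- (log2 change 4.98 ± 0.73 SE, adjusted p = 5.81e-11). The non-coding RNA gene AT4G26255 had 391, 412 and 457 in nrpd1-/- and 84 and 49 in pat nrpd1+/- (log2 change 2.52 ± 0.62, adjusted p = 1.16e-04). Neither had libraries that overlapped. Members were chosen by high reads in the same nrpd1-/- libraries. That choice favours higher calls, so the calls of AT5G49410 and AT4G26255 are not independent of it. The lowest fitted values, all in pat-rich genes, were those of the lncRNA genes AT3G03665 and AT3G08135 and of AT5G06020, of the plant self-incompatibility S1 family, and rest on few nrpd1-/- reads: AT3G03665 had 3, 3 and 0 22-nt reads in nrpd1-/- and 677 and 227 in pat nrpd1+/-.

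In the 23-nt class 333 members passed the filter, 4 were higher in nrpd1-/- (0.208% of 3360 genes tested) and 46 were lower (75.5%), 50 in all (75.7%). The lower members were the 44 pat-rich genes, whose calls again restate how they were set apart, and the snoRNA genes AT1G08327 and AT1G75166 (adjusted p = 0.0240 and 0.0409). The calls of these snoRNA genes were lost under 8 of 11 and 7 of 10 alternatives, with adjusted p up to 0.147 and 0.244. The pat-rich genes summed to 1615, 594 and 54 23-nt reads in nrpd1-/- and 111848 and 34974 in pat nrpd1+/-. The median SE of the log2 changes of the 289 other members tested was 0.83. In simulated data over all genes tested most log2 changes of 2 were missed in this class, so a member not called is not shown to be equal. With TMM factors 134 members were higher and 44 lower, and with DESeq2 size factors 32 were higher and 44 lower, while the median log2 change of all genes tested moved to -5.49 and -5.74 in place of -6.27. AT5G49410 had 21, 15 and 20 23-nt reads in nrpd1-/- and none in either pat nrpd1+/- library, which is at least 12.1-fold higher, taking 3 reads over the pat nrpd1+/- group as the floor (adjusted p = 6.56e-05). The non-coding RNA gene AT2G43375 had 365, 256 and 165 in nrpd1-/- and 88 and 14 in pat nrpd1+/- (log2 change 2.50 ± 0.81, adjusted p = 0.00261). AT1G76065, of the LYR family of iron-sulfur cluster biogenesis and named like the snoRNA genes above after its values were seen, had 488, 472 and 194 in nrpd1-/- and 190 and 28 in pat nrpd1+/- (log2 change 1.97 ± 0.78, adjusted p = 0.0158), a call lost under 3 of 11 alternatives, with adjusted p up to 0.163. The scaled levels of the genotypes did not overlap in any of these genes. AT5G49410, with no read in pat nrpd1+/-, passed the filter only through nrpd1-/-. All 4 members called higher were chosen by high reads in the same nrpd1-/- libraries. Their calls are thus not independent of that choice. The tRNA-Leu gene AT2G36520 had 13, 10 and 9 reads in nrpd1-/- and 3 and 1 in pat nrpd1+/- (adjusted p = 0.0186), a call that was lost without pat nrpd1+/- replicate 2 (adjusted p = 0.152). The lowest fitted values were at 3 pat-rich genes, AT5G53610, with a carbohydrate-binding X8 domain, AT1G47885, annotated as a ribonuclease inhibitor, and the pseudogene AT3G43832. AT5G53610 had 2, 1 and 0 23-nt reads in nrpd1-/- and 592 and 152 in pat nrpd1+/-.

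The 21-nt class was compared between mat nrpd1+/- and pat nrpd1+/-, and 323 members passed the filter. In this comparison 1 member was higher in mat nrpd1+/- (2.7% of 3112 genes tested were higher) and 85 were lower (11.7% of genes tested), 86 in all (14.4%). The lower members were the 44 pat-rich genes and 41 others: 20 of 42 snoRNA genes tested, 11 of 37 organellar genes, 9 of 77 protein-coding genes and 1 lncRNA gene. Among the snoRNA genes the called log2 changes ran from -2.50 (AT3G01316, adjusted p = 1.99e-04) to -1.12 (AT1G04517, adjusted p = 0.0462). SOT16 and SOT18 were among the protein-coding genes called, at -1.51 and -1.39. Most calls outside the pat-rich genes rested on single libraries or settings. Without mat nrpd1+/- replicate 1, 9 of these members were lower, with 3 snoRNA and no organellar genes among them, and 54 members were called in all. Without pat nrpd1+/- replicate 2, 8 were lower, with 4 snoRNA and no organellar genes, and 53 members were called in all. With the replicate block 13 were lower and with DESeq2's test 14, of which 4 and 3 were snoRNA genes. The calls of AT3G01316, AT1G04517, SOT16 and SOT18, named after their values were seen, were lost under 1, 9, 3 and 4 of 10 alternatives, with adjusted p up to 0.0793, 0.321, 0.125 and 0.202. The 44 pat-rich genes were lower under each of these alternatives, and since high reads in pat nrpd1+/- set them apart, their calls are not independent of that choice. The higher member was AT4G26255, with 227, 178 and 155 21-nt reads in mat nrpd1+/- and 79 and 51 in pat nrpd1+/- (log2 change 1.82 ± 0.34, adjusted p = 2.54e-04). Among members that were not pat-rich, the inverted neighbours AT3G44570 and AT3G44580 had 21, 25 and 22 and 43, 48 and 41 reads in mat nrpd1+/- against 685 and 396 and 772 and 631 in pat nrpd1+/- (log2 changes -4.25 ± 0.33 and -3.73 ± 0.32, adjusted p = 1.88e-10 and 1.07e-09). The PPR gene AT1G63080 had 2345, 2162 and 1972 in mat nrpd1+/- against 11798 and 6752 in pat nrpd1+/- (log2 change -1.78 ± 0.28, adjusted p = 2.88e-05). This gene lies within 100 kb of NRPD1, so here the Col-0 segment of the mutant Ler mothers and the genotype cannot be told apart. The lowest fitted values were pat-rich: AT3G05025, AT1G80220 and AT2G05294, the last with no 21-nt read in mat nrpd1+/- and 454 and 294 in pat nrpd1+/-, at least 303-fold lower with 3 reads over the mat nrpd1+/- group as the floor. The median log2 change of the 44 pat-rich members was -9.74, or -9.61 with the 2 genes at 0 reads set to that bound. That of the other 279 members was -0.36, against -0.04 over all genes tested. The rule chose members by reads of another length, with means in these mat nrpd1+/- libraries at or below those in nrpd1-/-. This favours low values in mat nrpd1+/-, so nothing is read from the contrasts with all genes. The 41 lower calls outside the pat-rich genes are likewise not independent of the rule.

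**Figure D5:**
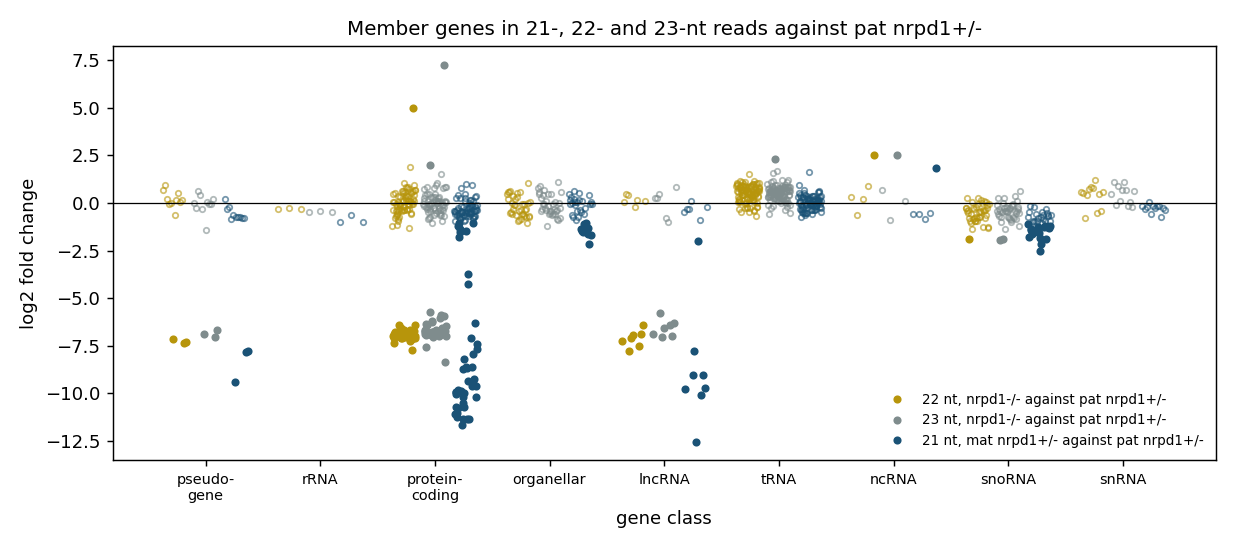
The log2 fold change of each member tested, by gene class, in 22- and 23-nt reads of nrpd1-/- over pat nrpd1+/- and 21-nt reads of mat nrpd1+/- over pat nrpd1+/-; filled points passed the test. The group far below 0 is the 44 pat-rich members, whose medians are -6.96, -6.77 and -9.74; fitted values of the 3 genes with no reads in a genotype depend on the prior count.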

How the data were processed

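Small RNA libraries (21 to 24 nt) of 8 endosperm samples in 3 genotypes were used. Per the study's methods, the authors trimmed reads, removed adapters with cutadapt and PCR duplicates by random adapter bases, aligned with Bowtie 1.2.2 to TAIR10 and to a Ler pseudo-genome carried over to Col-0 positions, keeping a single best alignment, and binned reads by length over Araport11 genes. Whether counting used strand is not given in the sources used here. The deposited values used were raw read counts in 12 gene tables. The tables also hold fold changes and p-values of the authors' own comparisons, and 376 per-library columns of other samples, normalised values or transposons, which were not used. In the deposited 21-nt nrpd1-/- gene table only the first 2099 entries are its own and the rest repeat another table, so only those were read, as values with no test.

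Entries naming no gene held 56.2% to 57.6% of listed 24-nt reads in nrpd1-/-, 87.8% to 88.5% in mat nrpd1+/-, against 80.9% to 84.7% in pat nrpd1+/-. Levels are reads per 10000 reads in the 427 miRNA entries. Tests used edgeR 4.0.16 (R 4.3.3; glmQLFit, glmQLFTest, filterByExpr) with the miRNA total of the 24-nt table (22- and 23-nt tests) or of the 21-nt table as library size, and were tested on simulated data; DESeq2 1.42.0 was an alternative. Genes named are the 12 with most 24-nt reads, the 6 with the largest ratio, the highest of each class of 3 or more members, members of the listed groups, the 3 either side of each limit and the 3 largest calls each way. Members, lists and tests were chosen with earlier results of these data known. P-values measure the spread between pooled crosses. Positions and sequences are from TAIR10.1 (RefSeq); all 191 named miRNA entries with coordinates lay in a miRNA gene of that build.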

Additional observations from a re-analysis of the deposited data

How the results depend on the processing

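The number of members moved most with the limits: it was 557 with a read minimum of 30, 208 with 120, and 72 with a ratio of 2 or more. Leaving out a library gave 228 to 354 members, the lowest without nrpd1-/- replicate 1. With the read minimum kept over all libraries, a choice made after seeing the data, leaving out a library gave 333 to 354. Other library scales gave 490 to 497 members, and the same 348 genes were among them. The calls of 22-nt members, 47 in all, became 103 with TMM factors and 99 with DESeq2 size factors, and 46 to 64 when a library was left out. The calls of 23-nt members, 50 in all, became 178 and 76, and 47 to 61. The 21-nt calls, 86 in all, ranged from 53 to 76 when a library was left out. In pat nrpd1+/- a left-out library leaves a lone sample, assumed to vary like the other group.

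In each test the genotypes shared replicate numbers 2 and 3, and samples of the same number did not deviate together in each pair (r from -0.336 to 0.324). The nrpd1-/- and mat nrpd1+/- libraries shared 3 numbers, with r from -0.0338 to 0.0803 over the 22-, 23- and 24-nt reads, and were not tested against each other. The samples are known to share only a number. A check with 2 pat nrpd1+/- libraries could not exclude a shared batch. With a replicate block the calls were 51 in the 22-nt, 61 in the 23-nt and 58 in the 21-nt class. Of 26 tests of named genes, 17 kept their direction and side of the threshold under each alternative run for them, and 9 were lost under 1 or more. These were AT1G08327 and AT1G75166 (22- or 23-nt), AT1G76065 and AT2G36520 (23-nt), and AT3G01316, AT1G04517, SOT16 and SOT18 (21-nt), in 45 values with no change of direction, while the other 227 values kept the call. AT2G36520 was lost under 4 of 9 alternatives (adjusted p up to 0.163) and did not pass the filter without nrpd1-/- replicate 1 or with all 3 genotypes in one fit. AT1G75166 had no value with TMM factors. Depth limits members near 60 reads, and scaled levels also carry the counting error of 13118 to 38607 miRNA reads.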
